A study of Mus musculus with 29 samples.

Results

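DNA methylation was examined over the mouse genes whose symbols begin with Zfp and a digit, the mouse naming for genes that encode zinc finger proteins. The members were all windows on chromosomes 1 to 19 that the table of gene windows assigns to such a symbol. This rule gave 2800 of the 260686 windows in the table, over 382 symbols, and left aside 43 windows of such genes on the X chromosome. A window is a stretch that holds a fixed number of CpG dinucleotides (the median here was 50, and 96.1% of the windows tested held 49 to 52), so its length varies with CpG density, from 224 to 164068 bp with a median of 4360 bp. A gene had a median of 4 windows, 15 genes had 1 window, and Zfp536 had the most with 117. Windows of one gene are neighbours on the same DNA and are not replicates of a condition. The rule is a naming rule, so zinc finger genes with other symbols are not included, and 455 of the 2800 windows also lie over another gene.

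The lungs came from 13-week-old Balb/c offspring, described as female (labelled "Lung (RML)"), of dams that had been given either saline or PM2.5 (fine particulate matter) through the nose before mating, during gestation and until weaning. The offspring were then either challenged with ovalbumin (OVA), a model of allergic airways disease (AAD), or given the vehicle, which the labels call PBS. This gives 4 groups: Sham (saline dam, no OVA; 7 libraries), Sham-OVA (saline dam, OVA; 7 libraries), PM (PM2.5 dam, no OVA; 7 libraries) and PM-OVA (PM2.5 dam, OVA; 8 libraries). All 4 groups are wild-type bulk lung, and the labels give no litter, so p-values measure the spread between these libraries.

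Zinc finger proteins are a large family whose fingers, short folds held together by a zinc ion, read nucleic acids. In the C2H2 type the fingers stand in arrays that mostly bind DNA. Many mouse C2H2 proteins also carry a KRAB domain, which recruits the corepressor Trim28 and, through it, silencing enzymes such as Setdb1. KRAB proteins are known for silencing transposable elements, and their genes stand in clusters that grew by duplication. A few C2H2 proteins, such as Zfp57 and Zfp445, hold methylation at imprinted genes. The CCCH type (Zfp36 and its relatives) binds AU-rich messenger RNA and promotes its decay, which limits cytokine production. By patterns searched in the annotated coding sequences, 209 genes held a KRAB match, 143 held C2H2 fingers without one, 3 were of the CCCH type, 7 had coding sequence with none of these patterns, and 21 had no coding sequence. Below, "without KRAB" means that no match was found, and a KRAB domain that departs from the pattern would be missed.

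Of the 2800 windows, 2796 had a value in at least 3 libraries of every group and were tested, among 259167 windows tested in all. Between libraries of one group the values over Zfp windows correlated with r of 0.996 to 0.998 (91 pairs), and no pair was identical. One library stands apart on the sex chromosomes, which the members do not include. Sham replicate 1 had a value in 1224 of 1230 windows of the Y chromosome, against 29 to 46 in the other libraries, and its median over 248 X-linked promoter windows was 0.631%, against 24.8% to 32.9% elsewhere. Both values go against the sex given for the animals. Results that turn on this library are given with and without it. The table holds percentages only, so the number of reads behind a value is unknown and no counting interval can be given. No expression values were used, so the lung label was not checked against expressed markers.

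The sequences below are reference GRCm38 bases from 6 windows whose methylation differed with OVA, shown to make visible where in each gene the CpGs lie. Capitals mark every CpG, the only sites counted here. The Zfp541 stretch (chr7:16061590-16061813, plus strand) is the CpG-dense DNA just before the annotated start of the gene and holds 39 CpGs in 224 bases. The Zfp46, Zfp575 and Zfp697 stretches (chr4:136290521-136290820, plus strand; chr7:24585826-24586125, minus strand; chr3:98428331-98428627, plus strand) lie in exons that encode C2H2 fingers and hold 33, 32 and 28 CpGs. The Zfp36l1 stretch (chr12:80109946-80110245, minus strand) encodes 1 CCCH finger and holds 29 CpGs. The Zfp362 stretch (chr4:128787420-128787719, minus strand) is intronic and far poorer in CpG, with 13 in 300 bases. Each is read 5′ to 3′ on the strand of its gene.
Zfp541: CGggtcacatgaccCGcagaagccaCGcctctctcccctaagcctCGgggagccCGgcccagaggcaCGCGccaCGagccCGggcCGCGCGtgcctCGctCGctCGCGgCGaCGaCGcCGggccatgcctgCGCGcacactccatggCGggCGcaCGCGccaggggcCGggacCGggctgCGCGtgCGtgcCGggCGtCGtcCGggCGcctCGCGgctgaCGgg
Zfp46: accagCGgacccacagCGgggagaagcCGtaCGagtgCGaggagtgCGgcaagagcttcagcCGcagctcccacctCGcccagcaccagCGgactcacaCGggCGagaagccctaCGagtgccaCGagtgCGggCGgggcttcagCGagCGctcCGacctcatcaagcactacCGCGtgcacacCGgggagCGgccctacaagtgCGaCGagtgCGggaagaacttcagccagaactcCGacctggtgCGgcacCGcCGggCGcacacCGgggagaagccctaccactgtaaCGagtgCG
Zfp575: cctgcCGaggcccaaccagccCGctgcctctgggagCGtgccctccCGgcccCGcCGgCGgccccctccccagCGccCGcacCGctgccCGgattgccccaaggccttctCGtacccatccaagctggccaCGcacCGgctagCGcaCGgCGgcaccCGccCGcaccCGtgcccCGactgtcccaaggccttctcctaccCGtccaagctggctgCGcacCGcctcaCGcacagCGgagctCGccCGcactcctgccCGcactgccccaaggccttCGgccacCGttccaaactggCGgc
Zfp697: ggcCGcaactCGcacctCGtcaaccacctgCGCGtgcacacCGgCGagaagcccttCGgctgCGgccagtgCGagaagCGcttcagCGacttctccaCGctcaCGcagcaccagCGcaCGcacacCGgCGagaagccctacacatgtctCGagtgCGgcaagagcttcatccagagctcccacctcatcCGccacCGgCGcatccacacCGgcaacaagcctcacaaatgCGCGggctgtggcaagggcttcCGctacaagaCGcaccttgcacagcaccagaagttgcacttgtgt
Zfp36l1: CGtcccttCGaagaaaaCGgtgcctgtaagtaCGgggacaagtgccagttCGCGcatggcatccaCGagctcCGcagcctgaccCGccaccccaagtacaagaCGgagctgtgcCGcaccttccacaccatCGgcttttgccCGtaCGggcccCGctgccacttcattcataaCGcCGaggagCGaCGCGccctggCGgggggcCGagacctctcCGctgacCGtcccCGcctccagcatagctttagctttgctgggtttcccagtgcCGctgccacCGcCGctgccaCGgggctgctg
Zfp362: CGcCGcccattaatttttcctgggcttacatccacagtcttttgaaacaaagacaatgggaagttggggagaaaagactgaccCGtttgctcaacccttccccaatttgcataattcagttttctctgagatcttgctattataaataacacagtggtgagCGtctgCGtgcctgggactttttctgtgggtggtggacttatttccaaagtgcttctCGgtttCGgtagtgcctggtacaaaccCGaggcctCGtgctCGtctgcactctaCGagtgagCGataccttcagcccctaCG

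In unchallenged lung most Zfp windows were highly methylated. The median of the Sham means over the tested windows was 78.2%, against 76.9% over all windows. Sham means above 80% were found in 45.4% of Zfp windows and in 38.5% of all windows, and means under 10% in 9.08% and 6.91%. These are descriptions of levels, with windows of one gene counted separately. Levels differed by the part of the gene. Windows over finger-coding exons had a median of 87.5% (573 windows, 336 genes), and windows over the annotated gene start a median of 27.4% (329 windows). In the KRAB genes finger-coding windows reached a median of 89.1% (264 windows), and in the C2H2 genes without KRAB 86.0% (307 windows).

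Gene starts separated the classes. The median level at the start was 37.5% in the KRAB genes (194 windows) and 6.46% in the C2H2 genes without KRAB (111 windows), but these windows also differed in length, with medians of 3778 and 1319 bp. A short window means dense CpGs. Among start windows under 1500 bp, the KRAB genes had a median of 1.68% (34 windows) and the others 0.430% (62 windows), beside 0.583% over 7031 such windows of all genes. Among longer start windows the medians were 42.6% (160 windows) and 38.0% (49 windows). Such short windows held 34 of the 194 KRAB starts and 62 of the 111 others, and the plot of level by gene part shows all starts together. The 3 CCCH genes were the least methylated class, with a median of 0.624% over 13 windows.

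**Figure D1:**
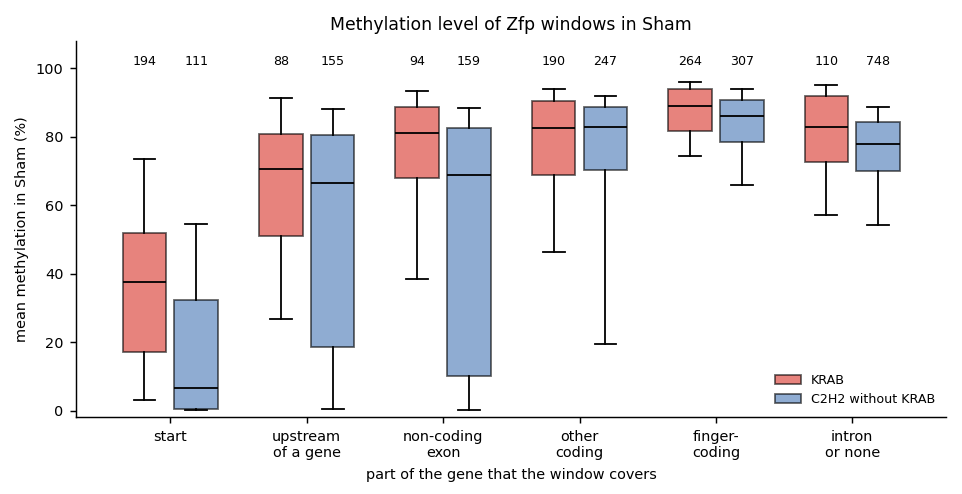
Mean methylation in Sham (percent, y axis) of Zfp windows by the part of the gene they cover (x axis), for KRAB genes and C2H2 genes without KRAB; the line is the median, the box the quartiles, the whiskers the 10th and 90th percentiles, and the number above each box the count of windows. Finger-coding windows lie highest in both classes (medians 89.1% and 86.0%), and start windows lowest (37.5% and 6.46%).

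The extremes of level were at both ends of the scale. Zfp800 (a window at chr6:28261451-28261795, in a non-coding exon) and Zfp219 (chr14:52014360-52014680) were listed at 0 in every Sham library with a value, 7 and 5 libraries, and Zfp148 (chr16:33381066-33381425) had a Sham mean of 0.0169%. At the other end Zfp277 (chr12:40403378-40407748), Zfp873 (chr10:82060592-82067137) and Zfp90 (chr8:106421776-106425410) had Sham means of 98.3%, 98.2% and 98.2%. Most windows varied little between libraries: the pooled within-group SD had a median of 1.31 percentage points, and 15 of the 2796 windows exceeded 5. The most variable were in Zfp704 (chr3:9451229-9451840, SD 8.995), Zfp433 (chr10:81701377-81708534, 8.68), Zfp69 (chr4:120934482-120940917, 8.32), Zfp872 (chr9:22187043-22188345, 7.35) and Zfp955a (chr17:33254968-33263428, 7.21). In these 5 windows no contrast between groups passed the test.

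The first question of the design is what OVA did to methylation in offspring of saline dams (Sham-OVA against Sham) and of PM2.5 dams (PM-OVA against PM). These contrasts share no library, but their p-values come from the same fit and share its estimate of the spread. A differentially methylated region (DMR) was a window with a Benjamini-Hochberg adjusted p under 0.05 in limma, adjusted over all windows tested, and a difference between group means of at least 10 percentage points. In the Sham arm 13 Zfp windows were DMRs, 9 higher and 4 lower with OVA, which is 0.465% of Zfp windows beside a background of 0.775% of all windows tested (0.479% higher and 0.296% lower). In the PM arm 15 were DMRs, 8 higher and 7 lower, which is 0.536% beside a background of 0.584% (0.263% higher and 0.321% lower). Together they made 19 windows in 15 genes, and 9 windows were DMRs in both arms with the same sign, 0.322% beside 0.458% of all windows. Neither share lay above the background. C2H2 genes without KRAB held 11 of the 13 and 12 of the 15, and KRAB genes 1 of each. These are 0.637% and 0.695% of the 1727 windows of the former and 0.106% of the 940 windows of the latter in each arm. KRAB windows were more often above 80% in Sham (49.7% against 44.6%), which leaves less room to rise by 10 points. They were also longer (medians 5469.5 and 4040 bp), and the difference between these classes in DMRs was not tested. Without Sham replicate 1 the counts of Zfp DMRs were 14 and 15: in the Sham arm the Zfp46 window was lost, and Zfp800 (chr6:28319074-28323443) and Zfp385a (chr15:103314646-103317680) were gained.

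Averaged over all 2796 windows the shift was small. The library mean over Zfp windows was 67.5% ± 0.312 in Sham (SD, n = 7; 67.04% to 67.9%) and 67.3% ± 0.498 in Sham-OVA (n = 7; 66.5% to 67.9%). It was 67.7% ± 0.382 in PM (n = 7; 67.2% to 68.4%) and 67.01% ± 0.334 in PM-OVA (n = 8; 66.5% to 67.4%). The groups overlapped in both arms. Median differences with OVA over Zfp windows were -0.270 points in the Sham arm and -0.624 points in the PM arm, beside -0.414 and -1.03 points over all windows. Once every library was set to the same centre over all windows, the medians over Zfp windows were 0.126 and 0.356 points, with the sign turned, beside -0.018 and -0.051 points over all windows. The difference between Zfp windows and the rest was not tested.

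**Figure D2:**
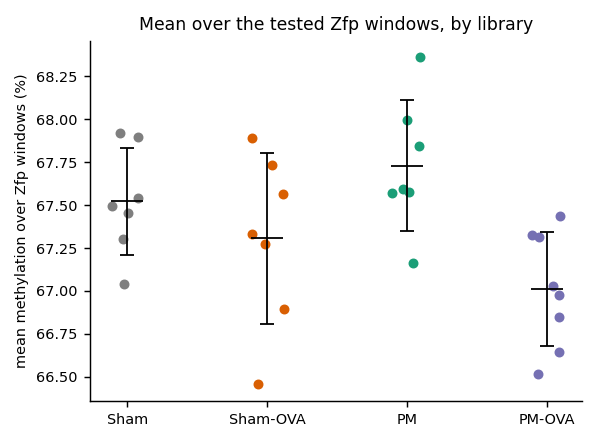
Mean methylation over the 2796 tested Zfp windows (percent, y axis, which does not start at 0) in each library (points) by group, with the group mean and SD (bar and whiskers). The PM-OVA libraries lie between 66.5% and 67.4% and overlap the PM libraries at 67.2% to 68.4%.

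Marker genes of other cells moved in the same libraries. Over 117 windows of 19 of 20 listed immune genes (such as Ptprc, Spi1 and Ikzf1) the library mean was 64.0% to 65.1% in Sham and 62.0% to 63.5% in Sham-OVA, and 64.5% to 65.5% in PM and 61.7% to 62.8% in PM-OVA, so that neither arm overlapped. Of these 117 windows 9 were DMRs in each arm (the background is 0.775% and 0.584% of all windows), all of them lower except a Spi1 window (chr2:91113404-91115447) that was 13.9 and 13.5 points higher. Over 180 windows of 20 lung structural genes (such as Pecam1, Cdh5 and Hopx) the library mean was 63.4% to 65.2% in Sham and 64.5% to 66.3% in Sham-OVA, and 63.5% to 65.8% in PM and 64.4% to 65.8% in PM-OVA, with overlap in both arms. Of these 180 windows 4 and 2 were DMRs, among them 1 Pecam1 window that was lower (-18.0 and -15.9 points) and another that was higher (12.5 and 11.6 points). In bulk lung, a change in the mix of cells and a change of methylation within cells cannot be told apart. The part of the cell mix in the Zfp results below was not tested.

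Among the CCCH genes OVA raised methylation in the body of Zfp36l1, which encodes a protein that promotes decay of AU-rich messenger RNA. The window (chr12:80109294-80110359) covers most of the coding exon and also lies over Gm26669. In Sham the lowest, median and highest libraries were 11.9%, 18.2% and 30.5%, and in Sham-OVA 29.6%, 47.0% and 56.5%. The highest Sham library lay above the lowest Sham-OVA library, and the means differed by 24.4 points (limma adjusted p = 1.43e-06), the largest difference of any Zfp window in either arm. In PM the values were 17.8%, 23.2% and 26.7%, and in PM-OVA 30.4%, 35.5% and 41.2%, with no overlap and a difference of 13.5 points (limma adjusted p = 0.000924). The next window toward the gene start (chr12:80110360-80112179) rose by 4.76 points in the Sham arm and 2.66 points in the PM arm, and the start itself stayed under 1% in Sham (0.110%). No window of its relatives Zfp36 (3 windows) and Zfp36l2 (6 windows) was a DMR, and their differences ran from -2.82 to 1.71 points.

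The only KRAB gene with a DMR was Zfp46. Its window (chr4:136290394-136290888) is 495 bp long, wholly coding, and 372 of its bases encode fingers. Sham libraries ran from 65.3% through a median of 74.4% to 76.8%, and Sham-OVA from 78.5% through 84.2% to 87.1%. PM libraries ran from 70.7% through 71.8% to 74.6%, and PM-OVA from 78.2% through 82.7% to 89.7%. Every OVA library lay above every unchallenged library in both arms, with differences of 10.2 points (limma adjusted p = 6.63e-05) and 11.1 points (limma adjusted p = 8.47e-06). In the Sham arm the difference fell just under 10 points when any 1 of 5 libraries was left out: 8.93 without Sham replicate 1, 9.92 without Sham replicate 4, and 9.63, 9.95 and 9.88 without Sham-OVA replicates 2, 3 and 6. Of its 7 windows 5 in the Sham arm and 6 in the PM arm were higher with OVA in limma, beside 13.3% and 9.26% of all windows, and none was lower. The others did not pass the test, and the smallest differences were 0.067 and 0.348 points.

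Zfp575, a C2H2 gene without KRAB, had adjoining DMRs over its finger-coding exons in both arms. For the window nearer the start (chr7:24585826-24586988) Sham libraries ran from 56.0% through 60.9% to 72.4%, and Sham-OVA from 65.9% through 73.4% to 79.5%. PM libraries ran from 52.9% through 56.7% to 62.1%, and PM-OVA from 65.8% through 71.4% to 79.7%. The Sham groups overlapped and the PM groups did not, with differences of 12.1 points (limma adjusted p = 0.000221) and 15.3 points (limma adjusted p = 8.94e-06). The window beyond it (chr7:24583917-24585825), mostly non-coding exon, had means of 65.0%, 75.5%, 66.2% and 76.6% (order Sham, Sham-OVA, PM, PM-OVA), with no overlap in either arm (10.5 points, limma adjusted p = 1.06e-05, and 10.4 points, limma adjusted p = 4.18e-06). Its difference was 9.87 points without Sham-OVA replicate 4, and in the PM arm 9.94, 9.19, 9.73 and 9.86 points without PM replicate 3, PM replicate 7, PM-OVA replicate 2 and PM-OVA replicate 7. The start window of Zfp575 rose by 4.04 and 2.16 points.

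Zfp541, known for its role in meiosis in germ cells, was the only gene with a DMR across its start (chr7:16061590-16061863). Sham libraries ran from 41.3% through 47.9% to 59.6%, and Sham-OVA from 54.7% through 62.2% to 65.5%. PM libraries ran from 45.6% through 48.6% to 58.4%, and PM-OVA from 56.7% through 62.5% to 68.2%. The groups overlapped in both arms, and the means differed by 12.4 points (limma adjusted p = 0.000121) and 13.3 points (limma adjusted p = 2.52e-05). The window holds 18.2 CpGs per 100 bp, above the median of 7.80 over the start windows under 1500 bp of all genes, whose median level was 0.583%, while its own level in the 14 unchallenged libraries was 41.3% to 59.6%.

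Zfp366 (also called DC-SCRIPT), a nuclear regulator known from dendritic cells, had a DMR in both arms in an intron near the end of the gene (chr13:99235657-99239767). Sham libraries ran from 40.8% through 45.6% to 48.7%, and Sham-OVA from 50.9% through 56.8% to 60.1%. PM libraries ran from 43.5% through 46.8% to 50.5%, and PM-OVA from 56.0% through 57.4% to 58.8%. Neither arm overlapped, and the differences were 11.7 points (limma adjusted p = 1.62e-07) and 10.7 points (limma adjusted p = 2.36e-07). The window on its far side (chr13:99239906-99244257) moved the other way, by -5.46 and -6.73 points.

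Lower methylation with OVA was found in Zfp362 and Zfp697, both C2H2 genes without KRAB. In Zfp362 adjoining windows fell from a nearly full level. At chr4:128786477-128788984 Sham libraries ran from 88.0% through 90.3% to 92.6%, and Sham-OVA from 68.6% through 72.6% to 83.5%. PM libraries ran from 87.9% through 89.5% to 90.7%, and PM-OVA from 65.0% through 72.9% to 79.2%. No OVA library reached any unchallenged library of its arm, and the differences were -16.1 points (limma adjusted p = 2.88e-08) and -18.0 points (limma adjusted p = 5.36e-09), the second of which was the largest fall of any Zfp window in the PM arm. The window beside it (chr4:128783935-128786476), which covers part of the fingers, differed by -10.2 points (limma adjusted p = 4.06e-09) and -12.5 points (limma adjusted p = 2.46e-10), again with no overlap. In the Sham arm it was -9.90, -9.87 and -9.45 points without Sham-OVA replicates 3, 4 and 6, and -9.78 points with every library set to the same centre. The window upstream (chr4:128788985-128791545) moved by 6.13 and 3.61 points, the first of which passed the test, and the next windows on both sides differed by less than 1 point. Farther upstream in Zfp362 the window chr4:128795241-128798531 was lower (-3.61 and -5.04 points; limma adjusted p = 0.0048 and 0.000111), and chr4:128801281-128805044 was higher (6.20 and 2.84 points; limma adjusted p = 0.000239 and 0.0498).

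In Zfp697 the DMR of both arms was the window at the end of the finger-coding exon (chr3:98428331-98429939), which continues into non-coding exon. Sham libraries ran from 34.1% through 41.7% to 45.6%, and Sham-OVA from 16.9% through 23.7% to 28.6%. PM libraries ran from 26.4% through 36.5% to 38.3%, and PM-OVA from 20.7% through 22.9% to 28.8%. The Sham arm did not overlap and the PM arm did, with differences of -17.4 points (limma adjusted p = 2.29e-07) and -11.3 points (limma adjusted p = 2.69e-05). The short windows just before it in the same exon (chr3:98427542-98427994 and chr3:98427995-98428330) stood at 2.12% and 4.59% in Sham. Another window assigned to Zfp697 (chr3:98460660-98486873, 26214 bp long and also over Gm19210) was a DMR in the Sham arm, -15.9 points (limma adjusted p = 0.0032). That window had a value in few libraries (3 of Sham, 3 of Sham-OVA, 4 of PM, 6 of PM-OVA), and its difference in the PM arm was 1.497 points (limma adjusted p = 0.609).

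**Figure D3:**
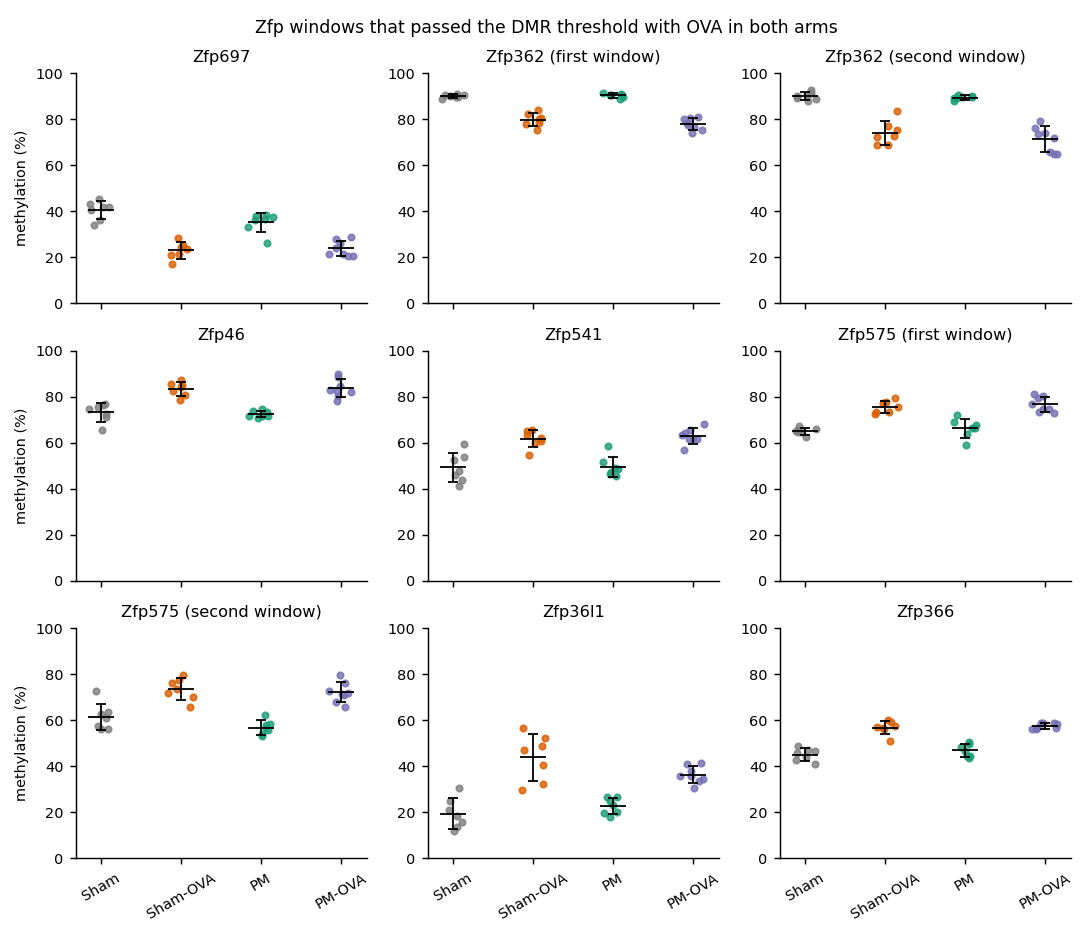
Methylation (percent, y axis) in each library (points) for the 9 Zfp windows that passed the DMR threshold with OVA in both arms, by group, with the group mean and SD (bar and whiskers); "first" and "second" order a gene's windows by position. In 5 of the 9 windows no OVA library overlaps the unchallenged libraries in either arm, among them Zfp46 and both windows of Zfp362.

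Windows that were DMRs in the Sham arm alone numbered 4: the sparse Zfp697 window and 3 that also passed the adjusted p in the PM arm. Zfp608 (chr18:54951406-54953673, intronic) ran from 23.0% through 26.5% to 29.1% in Sham and from 34.6% through 39.3% to 46.7% in Sham-OVA, with no overlap. In PM it ran from 22.4% through 26.6% to 29.6%, and in PM-OVA from 28.0% through 36.5% to 41.5%, with overlap. The differences were 14.1 points (limma adjusted p = 1.23e-06) and 9.56 points (limma adjusted p = 6.19e-05). The PM difference of Zfp608 was 10.1, 10.03, 10.0003 and 10.7 points without PM replicate 1, PM replicate 7, PM-OVA replicate 3 and PM-OVA replicate 6. Zfp683 (Hobit), a regulator of tissue-resident lymphocytes, rose from a mean of 53.5% to 63.9% in the Sham arm (10.4 points, limma adjusted p = 2.46e-05) and from 54.8% to 64.4% in the PM arm (9.63 points, limma adjusted p = 3.03e-05). Neither arm of Zfp683 overlapped, and its window (chr4:134058864-134061384) lies over and past the end of the gene, mostly upstream of Crybg2. Without Sham replicate 3 or Sham-OVA replicates 1 or 6 its Sham difference was 9.87, 9.78 and 9.76 points. Its PM difference passed 10 points without PM replicates 1, 2, 4 or 6 (10.3, 10.3, 10.03 and 10.002) or PM-OVA replicates 5 or 7 (10.2 and 10.2). An intronic window just past the start of Zfp366 (chr13:99185095-99188010) rose by 10.4 points (limma adjusted p = 4.49e-05) and 6.96 points (limma adjusted p = 0.00144), and the first was 9.26 and 9.74 points without Sham replicate 5 and Sham-OVA replicate 1.

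Windows that were DMRs in the PM arm alone numbered 6, and 5 of them also passed the adjusted p in the Sham arm. The lower ones were Zfp800 (chr6:28319074-28323443, intronic), Zfp523, Zfp704 and Zfp839. In Zfp800 the means fell from 64.5% to 52.1% in the PM arm (-12.3 points, limma adjusted p = 3.25e-08) and from 64.7% to 54.7% in the Sham arm, where the difference of -9.996 points (limma adjusted p = 1.58e-06) was the closest to the minimum from below. Neither arm overlapped in Zfp800. Leaving out any 1 of 10 libraries took its Sham difference past 10 points, up to -10.5 without Sham-OVA replicate 7 (-10.1 without Sham replicate 1, Sham replicate 3, Sham replicate 6, Sham-OVA replicate 1 or Sham-OVA replicate 3, -10.3 without Sham replicate 4, -10.2 without Sham-OVA replicate 5, and -10.03 without Sham replicate 7 or Sham-OVA replicate 2).

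Zfp523, the mouse counterpart of the transcription factor ZNF76, fell from 73.3% ± 1.86 to 61.7% ± 1.84 in the PM arm (chr17:28203251-28207268; -11.7 points, limma adjusted p = 9.56e-10) and from 73.6% ± 1.34 to 63.7% ± 2.09 in the Sham arm (-9.84 points, limma adjusted p = 2.25e-08), with no overlap in either. Its Sham difference passed 10 points without Sham replicates 2, 4 or 5 (-10.03, -10.02 and -10.01) or Sham-OVA replicates 3 or 4 (-10.2 and -10.3). Zfp704 (chr3:9566699-9569586, intronic) fell from 81.9% to 71.3% in the PM arm, without overlap, and from 81.3% to 72.9% in the Sham arm, where 1 library overlapped (-10.6 and -8.39 points, limma adjusted p = 5.35e-09 and 3.93e-07). With every library set to the same centre its PM difference was -9.62 points, under the minimum. Zfp839 (chr12:110855406-110858839, also over Mpc1-ps) fell from 81.9% to 71.7% and from 80.1% to 73.4%, without overlap in either arm (-10.2 and -6.70 points, limma adjusted p = 1.34e-08 and 1.49e-05). Its PM difference was -9.89, -9.85 and -9.64 points without PM replicate 6, PM replicate 7 and PM-OVA replicate 6, and -9.23 points with centred libraries.

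The higher ones were Zfp652 and Zfp385a. Zfp652 (chr11:95834630-95837805, a window that also covers Abi3 and Gngt2) rose from 26.4% to 37.2% in the PM arm (10.9 points, limma adjusted p = 6.35e-07) and from 25.8% to 35.1% in the Sham arm (9.37 points, limma adjusted p = 9.32e-06). The PM groups overlapped and the Sham groups did not. Without Sham replicate 4 the Sham difference of Zfp652 was 10.1 points. Zfp385a, a protein linked to p53 responses, had a DMR at its end (chr15:103312759-103314645) that ran from 40.6% through 49.8% to 60.3% in PM and from 54.5% through 58.8% to 65.4% in PM-OVA, with overlap (10.1 points, limma adjusted p = 0.00248). Its Sham difference was 5.34 points (limma adjusted p = 0.118). This DMR rested on single libraries: the PM difference was 9.15, 9.41 and 8.68 points without PM replicates 3, 5 and 7, 9.85, 9.64 and 9.25 points without PM-OVA replicates 6, 7 and 8, and 8.55 points without the pair of PM-OVA libraries 7 and 8, whose library names set them apart from the rest. The neighbouring window (chr15:103314646-103317680), which reaches a finger-coding exon, was just outside the threshold with 9.75 and 9.90 points. Its PM difference passed 10 points without PM replicates 1, 4 or 6 (10.5, 10.5 and 10.2) or PM-OVA replicates 1, 3 or 6 (10.02, 11.1 and 10.9), and with centred libraries (10.9). Its Sham difference was 10.9 and 10.2 points without Sham replicates 1 and 5, and 10.8, 10.6 and 10.4 points without Sham-OVA replicates 4, 5 and 7.

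**Figure D4:**
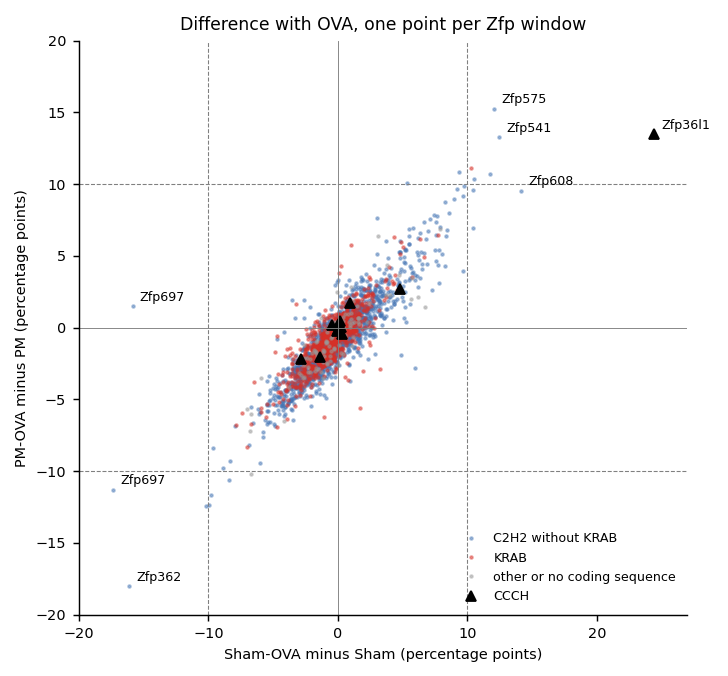
Difference of group means with OVA in the PM arm (y axis, percentage points) against the Sham arm (x axis, percentage points), 1 point per tested Zfp window, coloured by class; dashed lines mark 10 points. Zfp36l1 lies at 24.4 and 13.5 points, Zfp362 at -16.1 and -18.0, and nearly all windows lie within 10 points on both axes.

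Below the 10-point minimum the response was broad. At an adjusted p under 0.05 alone, 941 Zfp windows passed in the Sham arm (351 higher, 590 lower; 33.7% beside a background of 35.6%) and 1129 in the PM arm (264 higher, 865 lower; 40.4% beside 44.1%). At an unadjusted p under 0.05 the numbers were 1173 (42% beside 45%) and 1339 (47.9% beside 51.4%). The windows past the adjusted threshold touched 263 and 300 of the 382 tested genes, a count that was not made over all genes. Of these windows, 718 passed in both arms, which is 76.3% of the Sham list and 63.6% of the PM list, and 717 of the 718 had the same sign. Over all tested windows the shares were 76.7% and 62.0%. Across the 2796 windows the differences of the arms correlated with r = 0.875 (0.879 over all windows), given as a description since windows of a gene are neighbours and all windows share the libraries of their arm.

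The balance of higher and lower calls depended on the centre of the libraries. Of the calls 37.3% were higher in the Sham arm and 23.4% in the PM arm, beside 37.3% and 21.02% over all windows. With every library set to the same centre these shares became 50.8% and 54.8%, beside 50.7% and 50.3%. Under the same setting the DMRs were 12 higher and 3 lower in the Sham arm and 13 higher and 5 lower in the PM arm. Without centring, at the stricter adjusted p of 1e-06 that the study used, 1 was higher and 3 lower, and 2 and 6. The median difference of all windows on the log2 scale was -0.042 and -0.096 before centring. Zfp windows whose groups did not overlap at all numbered 78 higher and 141 lower in the Sham arm, 2.79% and 5.04% beside 3.15% and 5.43% of all windows. In the PM arm they numbered 46 higher and 286 lower, 1.65% and 10.2% beside 1.65% and 10.3%. In both arms at once 23 were higher and 93 lower, 0.823% and 3.33% beside 0.846% and 3.4%.

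Among the windows that were not DMRs, those with the smallest p-values are described next. A finger-coding window of the KRAB gene Zfp976 (chr7:42605356-42612822) ran from 92.2% through 93.5% to 94.0% in Sham and from 85.5% through 88.2% to 89.9% in Sham-OVA. It ran from 92.7% through 92.8% to 94.1% in PM and from 87.0% through 87.7% to 88.8% in PM-OVA. Neither arm overlapped, with differences of -5.45 and -5.29 points (limma adjusted p = 2.13e-09 and 1.14e-09). Zfp280b (chr10:76032831-76036091) behaved alike, at 48.9% and 39.3% in the Sham arm and 48.2% and 39.8% in the PM arm (-9.64 and -8.38 points, limma adjusted p = 1.28e-08 and 3.53e-08), and passed 10 points (-10.1) without Sham-OVA replicate 7. The finger-coding window of Zfp2 (chr11:50899508-50905603) stood at 95.4% and 91.0% in the Sham arm and 95.5% and 90.02% in the PM arm (-4.37 and -5.50 points, limma adjusted p = 1.11e-07 and 3.2e-09).

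By class, an adjusted p under 0.05 was reached by 28.3% and 37.0% of 940 KRAB windows in the Sham and PM arms and by 36.7% and 42.1% of 1727 C2H2 windows without KRAB, beside 35.6% and 44.1% of all windows. Over all windows 13.3% were higher and 22.3% lower in the Sham arm, and 9.26% and 34.8% in the PM arm. KRAB calls were 62 higher and 204 lower in the Sham arm and 54 and 294 in the PM arm, and with centred libraries 111 and 168, and 181 and 154, so that the excess of lower KRAB calls turned in the PM arm. Over the finger-coding windows of KRAB genes it did not turn: 16 were higher and 69 lower in the Sham arm and 11 and 102 in the PM arm, and 22 and 59, and 35 and 65, with centred libraries. The finger-coding windows of the other C2H2 genes gave 54 higher and 62 lower in the Sham arm and 37 and 84 in the PM arm, and, centred, 68 and 49, and 63 and 49. The difference between the classes was not tested. Sham levels had medians of 89.1% over the KRAB finger-coding windows, 86.0% over those of the other C2H2 genes and 76.9% over all windows. Of the centred calls over all windows 50.7% and 50.3% were higher. Coding windows of like level in other genes were not counted with centred libraries. Of 329 windows over gene starts, 27 were higher and 27 lower in the Sham arm, and 24 and 45 in the PM arm. These are 16.4% and 21% of them, beside 28.7% and 38% of the 33550 start windows of all genes. With centred libraries they were 53 higher and 21 lower, and 83 and 10, beside 4507 and 4863, and 5172 and 4819, over the start windows of all genes. Without centring, over all genes 3156 start windows were higher and 6463 lower in the Sham arm, and 2196 and 10561 in the PM arm. The start windows of all genes were longer (median 4659 bp, against 2736 bp over Zfp starts) and had a higher median level in Sham. Of the 7031 under 1500 bp, 17.8% and 16% passed without centring. These were 1024 higher and 225 lower in the Sham arm, and 857 and 269 in the PM arm. Whether the shares or the centred excess of higher calls are particular to Zfp starts was not tested.

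Of the listed developmental regulators with many windows, Zfp423, Zfp521 and Zfp608 had calls in 60.5%, 57.4% and 84.0% of their windows in the Sham arm and in 63.0%, 59.0% and 72.0% in the PM arm, Zfp462 in 45.9% and 48.6%, and Zfp536 in 29.9% and 41.0%, beside 35.6% and 44.1% of all windows. In Zfp423, a regulator of B-cell, fat and neural development, 8 of 81 windows were higher and 41 lower in the Sham arm, and 3 higher and 48 lower in the PM arm, with no DMR. Its window with the largest difference in the PM arm (chr8:87704683-87707908) had means of 86.6%, 77.8%, 86.5% and 76.7% in the order Sham, Sham-OVA, PM, PM-OVA, -8.84 and -9.76 points (limma adjusted p = 3.26e-07 and 3.83e-08). The PM difference of this Zfp423 window passed 10 points without PM replicates 4 or 5 (-10.03 and -10.1) or PM-OVA replicates 3, 6 or 8 (-10.3, -10.002 and -10.1). Zfp521, its close relative, had 7 higher and 28 lower of 61 windows in the Sham arm, and 2 and 34 in the PM arm. With centred libraries the counts were 12 and 38, and 10 and 38, for Zfp423, and 8 and 26, and 5 and 27, for Zfp521, so the direction held. Zfp608 went the other way, with 18 higher and 3 lower of 25 windows in the Sham arm and 16 and 2 in the PM arm (centred 19 and 2, and 17 and 2). Zfp536, with the most windows, was mixed at 18 higher and 17 lower in the Sham arm and 20 and 28 in the PM arm, and 22 and 12, and 30 and 10, with centred libraries.

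Genes with known silencing roles were few in windows and held no DMR, beside a background of 0.775% and 0.584% of all windows. The imprint guardian Zfp57 had 1 higher and 1 lower of 4 windows in the Sham arm and 2 lower in the PM arm (2 higher and 2 lower centred), within -7.42 to 2.12 points. The 4 windows of Zfp445 differed by -1.05 to 1.37 points, with none past the limma adjusted p, and 1 higher in each arm with centred libraries. Zfp568, a KRAB protein that silences a placental transcript of Igf2 in the embryo, had 5 higher and none lower of 13 windows in each arm (6 and 9 higher centred), up to 4.86 and 5.96 points. Zfp809, a silencer of retroviral DNA, had 1 higher and 2 lower of 5 windows in the Sham arm and 2 higher in the PM arm (2 and 2, and 3 higher, centred). Zfp932 had 2 lower of 2 in the Sham arm and 1 lower in the PM arm (1 lower and none centred). Other listed regulators gave no DMR: Zfp148 had 7 higher and 1 lower of 21 windows in the Sham arm, Zfp217 had 3 and 2 of 14, Zfp462 5 and 12 of 37, Zfp609 7 and 2 of 22, Zfp831 4 and 1 of 17, Zfp281 1 and 0 of 3, and Zfp703 2 and 1 of 5. In the PM arm the same genes had 4 and 4, 1 and 4, 4 and 14, 5 and 2, 2 and 2, 1 and 0, and 0 and 0. In that order, centred libraries gave 9 and 0, 3 and 1, 7 and 9, 9 and 2, 8 and 0, 1 and 0, and 2 and 0 in the Sham arm. In the PM arm they gave 8 and 1, 4 and 0, 10 and 9, 8 and 1, 4 and 1, 1 and 0, and 1 and 0, so that the balance turned or left equality toward higher calls in Zfp148, Zfp217, Zfp462, Zfp831 and Zfp703. Over all windows 13.3% were higher and 22.3% lower in the Sham arm, and 9.26% and 34.8% in the PM arm. The listed genes Zfp708 and Zfp750 had no window among the members.

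The partners through which KRAB proteins work were taken as a list of 29 genes, 28 of them with windows. Of 306 windows 60 were higher and 29 lower in the Sham arm and 42 and 39 in the PM arm, with 3 DMRs in the Sham arm and 0 in the PM arm. In all 29.1% and 26.5% of these windows passed the adjusted p, beside 35.6% and 44.1% of all windows, and the DMRs stand beside a background of 0.775% and 0.584%. Higher and lower calls made 13.3% and 22.3% of all windows in the Sham arm, and 9.26% and 34.8% in the PM arm. This list was not counted with centred libraries. The DMRs were Trim28 itself (chr7:13007517-13008099), at 71.2% ± 4.24 in Sham and 82.7% ± 2.46 in Sham-OVA (limma adjusted p = 3.97e-06), the DNA methyltransferase Dnmt3a (chr12:3808323-3812379), at 35.5% ± 2.13 and 46.2% ± 3.48 (limma adjusted p = 3.28e-07), and Pphln1 of the HUSH silencing complex (chr15:93472021-93478320), at 66.4% ± 3.52 and 76.6% ± 1.65 (limma adjusted p = 4.88e-07). All 3 also passed the adjusted p in the PM arm, with differences of 7.90, 8.33 and 7.41 points.

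Clusters of Zfp genes, taken as at least 5 genes less than 500000 bp apart, numbered 16 and held 762 windows of 172 genes. Inside them 25.6% and 33.9% of windows passed the adjusted p in the Sham and PM arms, and outside them 36.7% and 42.8% of 2034 windows, beside 35.6% and 44.1% of all windows. The only DMRs inside were those of Zfp575. The clusters varied widely. On chromosome 7 the cluster of Zfp976 and 8 other KRAB genes (chr7:42473386-43618285) reached 54.5% and 68.2% of 44 windows, and on chromosome 11 the cluster of Zfp2 and the Zfp354 genes (chr11:50811086-51072799) reached 53.8% and 61.5% of 26. Median differences in these clusters were -1.40 and -2.02 points, and -1.30 and -2.13 points, and stayed negative with centred libraries (-1.01 and -1.04, and -0.902 and -1.15). A cluster of 18 KRAB genes on chromosome 4 (chr4:145510759-147848366) had medians of -1.60 and -2.08 points, and -1.20 and -1.10 centred. Of its 78 windows 30.8% and 46.2% passed the adjusted p. On chromosome 13 a cluster of 18 genes (chr13:66669928-67792512) reached 5.08% and 15.3% of 59 windows, with medians of 0.263 and 0.034 points. With centred libraries it reached 11.9% and 33.9%, with medians of 0.659 and 1.01 points and, in the PM arm, 20 higher and 0 lower. Paralogs within a cluster share sequence, and how reads were divided among near-identical copies is not given in the sources used here.

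The second question is whether the dam's exposure changed methylation in the offspring. It gave no Zfp DMR and no Zfp window with a limma adjusted p under 0.05, without OVA (PM against Sham), with OVA (PM-OVA against Sham-OVA) or as a difference between the arms' responses to OVA. The background in all 3 was 0% of the windows tested. At an unadjusted p under 0.05, 163 Zfp windows (5.83%, beside 5.79% of all windows), 160 (5.72% beside 5.96%) and 192 (6.87% beside 7.4%) passed. These contrasts share the libraries of the OVA contrasts.

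The smallest p-values show the size of what was seen. Without OVA, an intronic window of Zfp827 (chr8:79092203-79096717) had means of 86.9% ± 1.90 in Sham and 89.6% ± 1.40 in PM (limma adjusted p = 0.696). With OVA, a finger-coding window of Zfp64 (chr2:168898579-168902313) had means of 88.4% ± 0.920 in Sham-OVA and 86.4% ± 1.19 in PM-OVA (limma adjusted p = 0.786). For the difference between responses it was Zfp97 (chr17:17131596-17147390), with 3.27 points in the Sham arm and -2.88 in the PM arm (limma adjusted p = 0.548). Among the 19 DMR windows, 4 had an unadjusted interaction p under 0.05 and the smallest adjusted p was 0.551. They were the Zfp36l1 window (24.4 against 13.5 points, limma adjusted p = 0.626), both Zfp697 windows (limma adjusted p = 0.671 and 0.551) and the Zfp839 window (limma adjusted p = 0.626). A larger DMR in one arm than in the other was therefore not shown to differ between offspring of saline and of PM2.5 dams for any Zfp window.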

How the data were processed

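DNA methylation was measured by enzymatic methyl sequencing (with an unmethylated lambda spike-in) in 29 lung libraries of 4 groups. Per the study's methods and the submitters' processing notes, the authors trimmed reads with Trim Galore, aligned and called methylation with DRAGEN against GRCm38, and averaged calls over windows of equal CpG number, keeping those over an Ensembl gene. The deposited table gives, for each window and library, the percent methylation the authors computed, with no read counts. All 29 value columns were used, and 0 were left out.

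The authors tested read counts with edgeR at an adjusted p of 1e-06 and a 10% difference. Percentages do not allow a count test, so log2((percent + 1)/(100 - percent + 1)) was fitted with limma 3.58.1 in R 4.3.3 over all 29 libraries and 4 groups. Windows needed 3 values in every group, p-values were 2-sided and Benjamini-Hochberg adjusted over 259167 windows, and a DMR needed an adjusted p under 0.05 and 10 points. The fit was tested on simulated data. Windows were annotated with the GENCODE annotation of GRCm38 and pysam 0.24.0. Finger, CCCH and KRAB classes came from amino acid patterns in the translated coding sequences, and positions from the first of these that a window reached: the start of its gene, finger-coding bases, the 2000 bp upstream of any gene, other coding bases, non-coding exon, otherwise intron. Clusters were genes less than 500000 bp apart.

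Named windows were all DMRs, those nearest the 10-point minimum, those with the smallest p without being a DMR or in a contrast with none, the 3 lowest and highest Sham levels, the 5 largest SDs and a list of genes with known roles. The members, gene lists and tests were chosen with earlier results of these data known. Same-numbered libraries of different groups correlated with r of -0.067 to 0.088 after removing group means, so the numbers were not taken as pairs.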

Additional observations from a re-analysis of the deposited data

Results flagged for a closer look

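The 150 sets tested were the groups of at least 4 values in each of 37 named windows and the library means over Zfp windows in each group. In 17 of them 1 library lay far from the rest of its group. Chance flags about 1 in 20 sets, but that rate is no comparison here, since most of these fell in windows named for their large spread or for their extreme level. In Zfp69 (chr4, window at 120934482) these were Sham replicate 4 at 64.5%, Sham-OVA replicate 1 at 56.96% and PM replicate 3 at 54.5%, each the lowest of its group. In Zfp277 (window at 40403378) they were Sham replicate 2 at 95.7%, PM replicate 2 at 83.8% and PM-OVA replicate 6 at 95.1%. In Zfp704 they were PM-OVA replicate 6 at 78.3% in the window at 9451229 and Sham-OVA replicate 4 at 78.6% in the window at 9566699, the library that overlapped Sham there.

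Single libraries also stood out in Zfp976 (Sham replicate 7, 92.2%), Zfp827 (Sham replicate 2, 82.8%), Zfp873 (PM-OVA replicate 6, 95.5%) and Zfp652 (PM replicate 4, 33.3%, the highest of its group). Windows at the floor gave the remaining ones, where most libraries are listed at 0: Zfp800 (PM-OVA replicate 4, 0.225%), Zfp219 (PM replicate 1, 0.610%, and PM-OVA replicate 7, 0.235%) and Zfp148 (Sham replicate 5, 0.118%, and Sham-OVA replicate 1, 1.09%).

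In Zfp827 and Zfp97 every Sham-OVA library lay above the Sham mean and every PM-OVA library below the PM mean; the differences between the responses were -3.63 and -6.15 points, and neither passed the limma interaction test after adjustment (adjusted p = 0.548 for both).

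Sham replicate 1 had values in 1224 windows of the Y chromosome, against 29 to 46 in the other libraries, which goes against the sex given for the animals.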

How the results depend on the processing

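The counts of Zfp DMRs depended most on the thresholds. With the study's adjusted p of 1e-06 they were 4 in the Sham arm (1 higher, 3 lower) and 8 in the PM arm (2 higher, 6 lower). With a minimum of 5 points they were 137 and 148, and with no minimum 941 and 1129. The last are 33.7% and 40.4%, beside 35.6% and 44.1% of all windows. No share over all windows was computed for the adjusted p of 1e-06 or the minimum of 5 points. By groups that do not overlap, chosen after seeing the data, the counts were 219 and 332, of which 10 and 11 are DMRs. Leaving out 1 library gave a range of 10 to 17 in the Sham arm (lowest when Sham-OVA replicate 6 was left out, highest for Sham replicate 4 or Sham-OVA replicate 7) and of 13 to 19 in the PM arm (lowest for PM replicate 3 or 7, highest for PM replicate 1 or PM-OVA replicate 3), with medians of -0.348 to -0.147 and -0.708 to -0.558 points. Centring each library gave 15 and 18 DMRs, sharing 12 and 13 with those reported, and turned the median differences to 0.126 and 0.356 points. A block for the replicate number left 13 and 15, and no paired reading was taken from the numbers. Other offsets (0.5 and 5), the percent scale, only the groups compared and no filter on missing values gave 13 and 15; a value in every library gave 12 and 15, windows over a single gene 10 and 12, and omission of PM-OVA replicates 7 and 8 gave 13 and 16. The dam contrasts and the interaction gave 0 DMRs in all of these fits. Of 473 values of single named windows under the alternatives that keep every library or leave out that pair, 440 kept their side of the threshold, 20 lost it, 13 gained it and none turned sign. Depth per window is unknown, so windows near the 10-point minimum cannot be weighed by their reads.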
